A study of Mus musculus with 6 samples.

Results

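Defensins, S100A proteins and a few other antimicrobial effectors were followed in sorted thymic and thyroid epithelial cells of the mouse. The set held every gene named on the array as an alpha-defensin (Defa or Defcr), a beta-defensin (Defb), an S100a gene or a peptidoglycan recognition protein (Pglyrp), together with Camp, Ltf and Lpo. The rule used gene names alone, though it was set with earlier results of these data known. It took 58 genes with 65 probes, out of 27597 genes with 41174 probes on the array. There were 13 alpha-defensins, 26 beta-defensins, 13 S100a genes, 3 Pglyrp genes and the 3 single genes. Of the 58 genes, 46 were bright enough to be tested and 12 were not.

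RNA was measured on 6 one-colour Agilent arrays, 3 per group, all from C57BL/6 mice. The thymic cells came from the medulla and were sorted as Epcam+, UEA1+ and CD45- after digestion with collagenase, dispase and DNAse. For the thyroid group, cells released by collagenase and DNAse were gated as Epcam+ and CD45-, and Fluorogold excluded dead cells in both groups. Epcam marks epithelium, the lectin UEA1 binds medullary epithelium, and CD45 is carried by blood cells. A thymic sample drew on 6 thymi (replicates 1 and 2) or on 2 (replicate 3), and a thyroid sample on 20 thyroids. The submitters describe 3 independent replicates per group, no animal's age or sex is given in the labels used here, and the number of arrays limits the precision.

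Defensins are short cationic peptides that damage microbial membranes. Mouse alpha-defensins, also called cryptdins, are best known from the Paneth cells of the small intestine, and beta-defensins from the epithelia of skin, airways and the male reproductive tract. S100A proteins are small calcium-binding proteins with EF hands, and some of them, such as the S100a8 and S100a9 pair, are stored in neutrophils and bind metal ions that microbes need. The medulla of the thymus is known for expressing genes of many other tissues, partly under the regulator Aire, which lets developing T cells meet those products.

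Because the alpha-defensins are close copies of one another, the probes are shown before their values. Each is 60 bases long and is given with the transcript base at which it starts and, where the array files place it, with its mm8 position. Capitals mark the 27 bases that the Defa1 and Defcr6 probes have in common.
Defcr21 (Defa21), from base 226, chr8:22521076-22521135, plus strand: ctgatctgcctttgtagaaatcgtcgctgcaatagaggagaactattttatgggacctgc
Defcr23 (Defa23), from base 170, spanning chr8:22550003-22550621, plus strand: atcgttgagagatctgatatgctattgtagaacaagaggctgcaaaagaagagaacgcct
Defa1, from base 189, not placed: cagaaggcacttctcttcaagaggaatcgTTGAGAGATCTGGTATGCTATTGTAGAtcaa
Defcr6, from base 152, spanning chr8:23200234-23200852, plus strand: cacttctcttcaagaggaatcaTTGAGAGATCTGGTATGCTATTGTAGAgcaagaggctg
Defcr3 (Defa3), from base 110, chr8:22782305-22782364, plus strand: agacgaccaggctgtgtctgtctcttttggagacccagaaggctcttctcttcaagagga
Defcr3 (Defa3), from base 10, chr8:22782205-22782265, plus strand: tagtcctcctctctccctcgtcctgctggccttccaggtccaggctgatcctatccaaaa
In the array's annotation, 8 of the 16 alpha-defensin probes list more than 1 RefSeq transcript, and 1 of the 28 beta-defensin probes does. The Defcr6 probe, for example, also lists Defa1 and Defa24, and the Defcr21 probe also lists Defa22. Among 120 pairs of alpha-defensin probes, 4 pairs from different genes share a run of 20 or more bases. The level of a single alpha-defensin gene is therefore uncertain, and the values below are those of the probes.

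The families differed in how many of their probes gave a signal. A probe was called above background where the scanner software placed its spots well above the background, at 13 background SDs here. On each of the 3 thymic arrays 12 of 16 alpha-defensin probes (75%) and 20 of 28 beta-defensin probes (71.4%) were above background. On thyroid replicates 1, 2 and 3 this held for 3, 1 and 1 alpha-defensin probes (18.8%, 6.25% and 6.25%) and for 5, 4 and 6 beta-defensin probes (17.9%, 14.3% and 21.4%). Over all probes of the array the share was 78.4% to 81.0% on thymic and 65.3% to 72.7% on thyroid arrays. The defensins were thus detected about as widely as other probes in thymic cells and far less widely in thyroid cells. All 13 S100a probes were above background on each thymic array and 10 or 11 of them on each thyroid array. In these bulk samples, fewer cells of a type and less RNA per cell cannot be told apart.

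**Figure D1:**
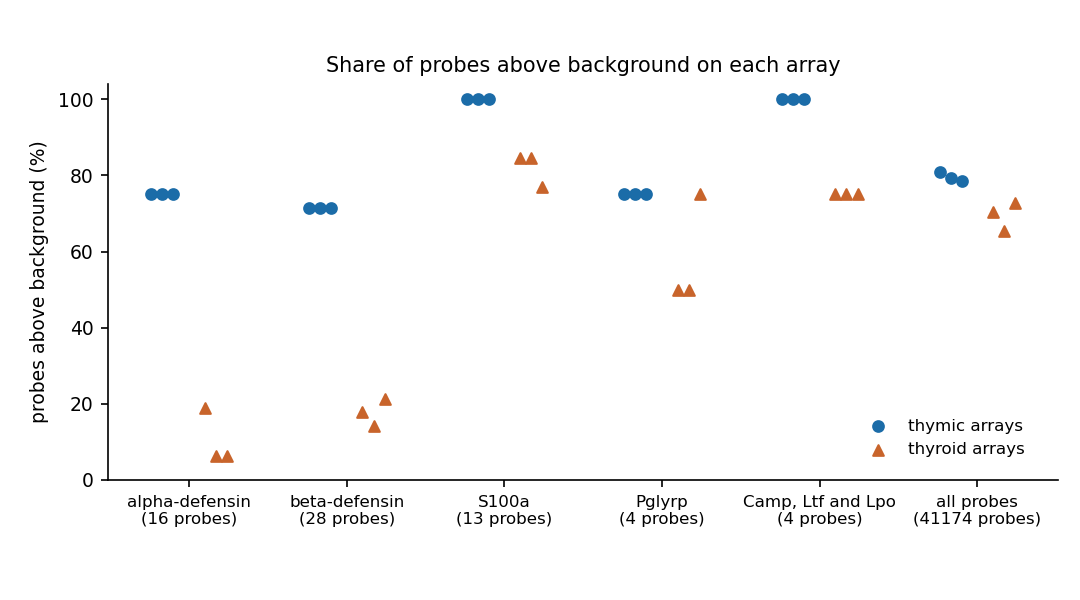
Share of probes above background (vertical axis, percent) on each array, by gene family and over all 41174 probes; each point is 1 array, circles thymic and triangles thyroid. The alpha- and beta-defensin points lie at 71.4% to 75% on the thymic arrays and at 6.25% to 21.4% on the thyroid arrays, while the S100a points lie at 76.9% or above on all 6.

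Levels are given as log2 of the processed signal relative to the 75th percentile of the same array, so that 0 is that percentile. A gene was tested where its probe was above background throughout the thymic or throughout the thyroid arrays, with limma and Benjamini-Hochberg adjustment over all 21381 genes tested and a threshold of 0.05. Of the 46 genes tested, 39 were higher in thymic cells, 4 were higher in thyroid cells and 3 did not pass. Over all genes tested 39.3% were higher in thymic cells and 30.5% in thyroid cells. With the array slide as a block these counts were 39 and 4, although the beta-defensin Defb34 lost its call and Defb11 gained one. Slide 1 held the thymic arrays and thyroid replicate 1, and slide 2 only thyroid arrays. The slide block therefore sets the thymic arrays against thyroid replicate 1, and slide and group are largely confounded. The median thymic minus thyroid difference was 5.17 on the log2 scale for the 46 genes and 0.10 for all genes. With dim thyroid values raised to the lowest level above background the medians were 3.75 and 0.09, and with normexp background correction the median of the 46 genes was 1.92. With dim thyroid values raised in that way, a called difference of 32-fold or more towards thymic cells was shown for 19 of the 46 and for 3.3% of all genes tested.

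The 3 thymic levels lay above the 3 thyroid levels in 39 genes, against 42.1% of all genes tested, and below them in 4 genes, against 34.3%. Only 19 of the 46 genes were above background on all 6 arrays, and the rest entered the test through their thymic level alone. Of the rest, 23 were above background on no thyroid array. Such genes could only be higher in thymic cells, so their count and median describe the choice as well as the cells. Among the 19 genes above background on all 6 arrays, 13 were higher in thymic cells, 4 were higher in thyroid cells and 2 did not pass. In a fit over the 17071 genes above background on all 6 arrays these shares were 29.5% and 37.5%, and the median difference was 1.97 for the 19 genes and -0.10 for all.

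Alpha-defensins, the intestinal cryptdins, gave 9 of 10 tested genes higher in thymic cells and 1 that did not pass. Over all genes tested 39.3% were higher in thymic cells. Only the 1 that did not pass, Defcr3, was above background on all 6 arrays. The 9 called genes entered the test through their thymic level alone. Of these, 8 were above background on no thyroid array and so could only be higher in thymic cells. The median difference of the 10 was 7.44, or 6.06 with dim thyroid values at the lowest level above background. The Defcr21 probe had levels of 1.16, 0.64 and 1.41 in thymic replicates 1 to 3 and of -8.34, -7.50 and -8.56 in the thyroid replicates. All 3 thymic values were above the 75th percentile of their array, and no thyroid value was above background. The means were 1.07 ± 0.39 and -8.13 ± 0.56 (SD, n = 3 each), which puts thymic cells at least 133-fold higher (limma with Benjamini-Hochberg, adjusted p = 1.27e-06). Such a fold sets the thymic mean against a thyroid mean of raised values. Each thyroid array counts at its lowest level above background, or at the probe's own level where that is higher. That lowest level is taken over all probes of the array and is not a detection limit of each probe. A fold given as at least is therefore a limit for this processing only. Over the other ways of processing, the smallest difference of Defcr21 was 4.45 on the log2 scale, against the 7.05 behind its fold here. For Defb6 it was 6.78 against 9.52, and for S100a8 6.53 against 9.56.

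Other large differences were of the same order. Defcr5 was at 0.81 ± 0.30 in thymic and -7.16 ± 1.32 in thyroid cells (at least 111-fold, adjusted p = 3.55e-05). Defcr6 was at 0.14 ± 0.19 and -7.57 ± 0.99 (at least 69.7-fold, adjusted p = 1.13e-05). Neither of them was above background on a thyroid array. Defcr23 was at least 63.7-fold and Defa1 at least 60-fold higher in thymic cells, with adjusted p of 2.15e-06 and 7.61e-06. Defa1 and Defcr6, whose probes share the 27 bases in capitals above, cannot be counted as separate measurements. Of the other genes that passed, 3 were at least 5.78-fold to at least 94.6-fold higher. Of these, the probe at 94.6-fold was above background on 1 thyroid array.

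The 9 alpha-defensin genes higher in thymic cells also varied together among the thymic samples. In all 9 the level was lowest in thymic replicate 2 and highest in thymic replicate 3, the pool of 2 thymi. That order held in 28.5% of the 8402 genes higher in thymic cells, in 11 of 17 beta-defensins, in 3 of 8 S100a genes and in 6 of 10 genes of a Paneth cell list. The median distance between the highest and the lowest thymic replicate was 0.59 for these 9 and 0.27 for all genes higher in thymic cells. It was 0.58 for the beta-defensins and 0.66 for thymocyte genes, 10 of 11 of which were highest in replicate 3, so the wide spread was not limited to the alpha-defensins. Their order of replicates was also that of 15 of 28 antimicrobial effectors of other families and 5 of 11 neutrophil genes. These 9 genes share sequence and in part transcripts, and are not 9 separate observations.

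Defcr3 stood apart, because its 2 probes disagreed. The probe from base 110 was at 0.82, 0.48 and 0.92 in thymic and -5.94, -5.98 and -8.04 in thyroid replicates. The thymic and thyroid values did not overlap, and no thyroid value was above background. Its thymic level was at least 101-fold above the thyroid one (adjusted p = 2.77e-05 over all probes tested). The probe from base 10 was at 2.21, 2.18 and 2.19 in thymic and 2.09, 2.49 and 2.19 in thyroid replicates. All 6 of its values were above background and the groups overlapped. Its means were 2.19 ± 0.01 and 2.26 ± 0.20 and did not differ by the test (adjusted p = 0.668), with a difference of -0.07 and a standard error of 0.13. As the probe of Defcr3 with the higher mean level it stood for the gene in the counts above. Among the transcripts it lists are those of Defa3, Defa20 and Defa23, and the probes named for Defcr20 and Defcr23 were above background on at most 1 thyroid array. No other probe of the array shares a run of 16 or more bases with it, on either strand. Taking the median of its 2 probes, the difference of Defcr3 was 3.66 (adjusted p = 4.69e-05). What the probe from base 10 bound in the thyroid samples was not tested.

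**Figure D2:**
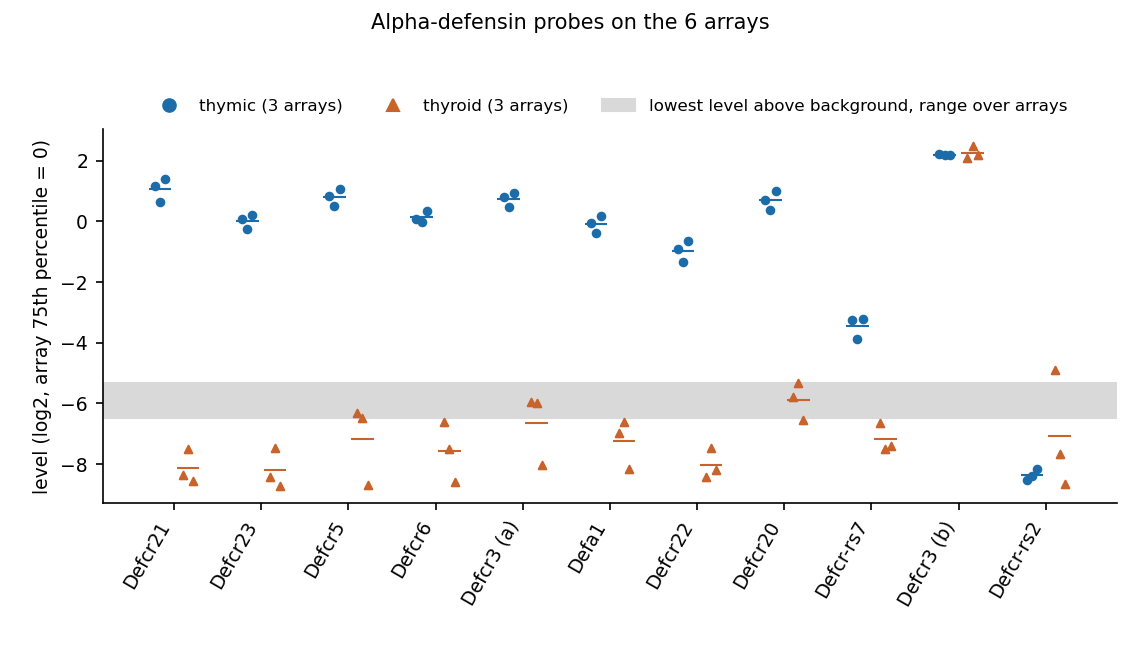
Levels of alpha-defensin probes above background on at least 1 array (vertical axis, log2 relative to the array's 75th percentile); points are arrays, circles thymic and triangles thyroid, short lines group means, and the grey band the lowest levels above background. The 2 probes of a gene are marked a and b. The thyroid points lie in or below the band except for Defcr3 (b), where both groups lie at 2.09 to 2.49, and 1 thyroid value of Defcr-rs2 at -4.91.

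The promoters of 5 of the alpha-defensins were found by symbol in RefSeq's GRCm38.p6 table, which gave 37 of the 58 genes. All 5 windows, from 250 bases before to 50 bases after the start, hold the letters TATAAA, searched on both strands. These letters stand in 14.2% of the 27025 promoters of the table, in 3 of 11 S100a and in 2 of 16 beta-defensin promoters. The search took only the exact letters, anywhere in the window. Defb3, Defb5, Defb6, Defb7 and Defb8 hold the similar letters TATATAAGG within the 100 bases before the start, which it does not count. The 100 bases just before the start are printed for Defcr21 and Defcr23, which belong to the less alike of the 5, with TATAAA in capitals.
Defcr21, chr8:21025445-21025544, plus strand: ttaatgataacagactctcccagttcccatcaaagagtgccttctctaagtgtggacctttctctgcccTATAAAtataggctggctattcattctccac
Defcr23, chr8:21054940-21055039, plus strand: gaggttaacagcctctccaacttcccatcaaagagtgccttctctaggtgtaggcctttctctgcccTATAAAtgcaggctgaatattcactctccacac
The letters begin 31 bases before the start in Defcr20, Defcr21 and Defcr22 and 33 bases before it in Defcr23 and Defcr-rs7. In a global alignment of the whole windows, pairs of the 5 were at least 82.3% identical. Defcr21 and Defcr22 did not differ at any base of the window, nor did Defcr23 and Defcr-rs7. Beta-defensin promoters were 45.0% to 89.0% identical, with a median of 54.0%. The letters TTNNGNAA, a pattern of C/EBP factors, stood in 12 of 16 beta-defensin promoters (75%), in 3 of 5 alpha-defensin promoters and in 40.7% of all promoters. The median GC content was 47.3% for the beta-defensin windows and 52.7% for all, and a match of letters is no sign of binding.

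Beta-defensins, the epithelial branch of the family, gave 17 of 18 tested genes higher in thymic cells and 1 that did not pass. Over all genes tested 39.3% were higher in thymic cells. Only 4 of the 18 were above background on all 6 arrays, and the others entered the test through their thymic level alone. The median difference was 4.41, or 2.95 with dim thyroid values raised, and 12 of the 18 were above background on no thyroid array. Defb6 had the highest lower limit of the fold. Its levels were 3.44, 3.35 and 3.81 in thymic and -7.53, -7.38 and -8.48 in thyroid replicates. The thymic values lay close together, and no thyroid value was above background. The means were 3.54 ± 0.24 and -7.79 ± 0.60 (SD, n = 3 each), a fold of at least 734 towards thymic cells (adjusted p = 5.77e-07).

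Defb1, a beta-defensin made constitutively by many epithelia, was at 0.24 ± 0.15 and -5.99 ± 0.52 in thymic and thyroid cells (at least 71.5-fold, adjusted p = 2.50e-06), and its other probe was at least 61.8-fold higher. Defb14, the mouse counterpart of human beta-defensin 3, was at -1.82 ± 0.25 and -8.11 ± 0.55 (at least 17.9-fold, adjusted p = 3.52e-06). Defb8, Defb7 and Defb5 were at least 17-fold, 9.51-fold and 11.2-fold higher, with adjusted p of 1.78e-05, 1.63e-05 and 1.47e-05. None of these 5 genes was above background on a thyroid array, so their differences have no measured order.

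Thyroid cells gave a signal on all 3 arrays for 4 beta-defensins. Defb3 was at 0.65, 0.45 and 0.98 in thymic and -3.98, -4.36 and -4.25 in thyroid replicates (29.7-fold, adjusted p = 1.41e-06), through a probe that also lists Defb8 and Defb4. Defb19 was at 0.02, -0.30 and 0.29 in thymic and -3.99, -4.05 and -3.99 in thyroid replicates (16.2-fold, adjusted p = 2.20e-06). Defb42 was 7.53-fold higher in thymic cells (-1.20 ± 0.04 against -4.11 ± 0.74, adjusted p = 2.93e-04). In all 3 genes every thymic value lay more than 2 log2 units above every thyroid value. The Defb19 probes differed in thyroid cells, where the other was above background on no array and gave at least 63.9-fold. Defb36 was 2.19-fold higher in thymic cells (-4.06 ± 0.08 against -5.19 ± 0.35, adjusted p = 0.00145), a call lost with normexp correction (adjusted p = 0.276) and with quantile normalization (adjusted p = 0.687). Defb11 did not pass (-4.74 ± 0.09 against -5.01 ± 0.46, adjusted p = 0.328) and was the beta-defensin whose direction depended on the scaling, at -0.86 with quantile normalization (adjusted p = 0.00710).

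Beta-defensins were also read along their gene clusters, and the genes named by position were picked after their values were seen. The array annotation places most beta-defensins in a pair of blocks on chromosome 8 (mm8), on either side of the alpha-defensins. The first block ran over 12 genes from chr8:18975005-19497705. Its first 6 genes in order, Defb40, Defb37, Defb38, Defb39, Defb12 and Defb34, held all 4 of the block's genes that were not above background on any array. The other 2 of these 6, Defb37 and Defb34, were at least 1.82-fold and 1.9-fold higher in thymic cells. Both lost their calls with normexp correction, and Defb34 also with quantile normalization and with the slide as a block. The last 6, Defb14, Defb6, Defb5, Defb3, Defb8 and Defb7, were all higher in thymic cells, against 39.3% of all genes tested. Defb3, above background on all 6 arrays, differed by 4.89 on the log2 scale, and the other 5 by at least 3.25 to at least 9.52. Because most thyroid values in the block were not above background, the sizes of these differences cannot be ranked along it.

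The second block ran over 9 genes from chr8:23260103-23414111. Defb1, Defb50 and Defb2, at its start, were higher in thymic cells by at least 6.16, 2.99 and 2.48 on the log2 scale. Of the 6 genes after them only Defb15 passed, by at least 2.15, Defb11 did not pass, and Defb10, Defb9, Defb35 and Defb13 were not above background on any array. Between the blocks, 8 alpha-defensins were placed at chr8:22521076-23200852, of which 7 were higher in thymic cells and 1, Defcr3, did not pass. The 5 beta-defensins on other chromosomes were all higher in thymic cells. These were Defb29, Defb19 and Defb36 on chromosome 2, Defb41 on chromosome 1 and Defb42 on chromosome 14. Defb29 and Defb41 were above background on no thyroid array and so could only be higher in thymic cells. With normexp correction the calls of Defb36 and Defb41 were lost. Of all genes tested, 39.3% were higher in thymic cells.

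**Figure D3:**
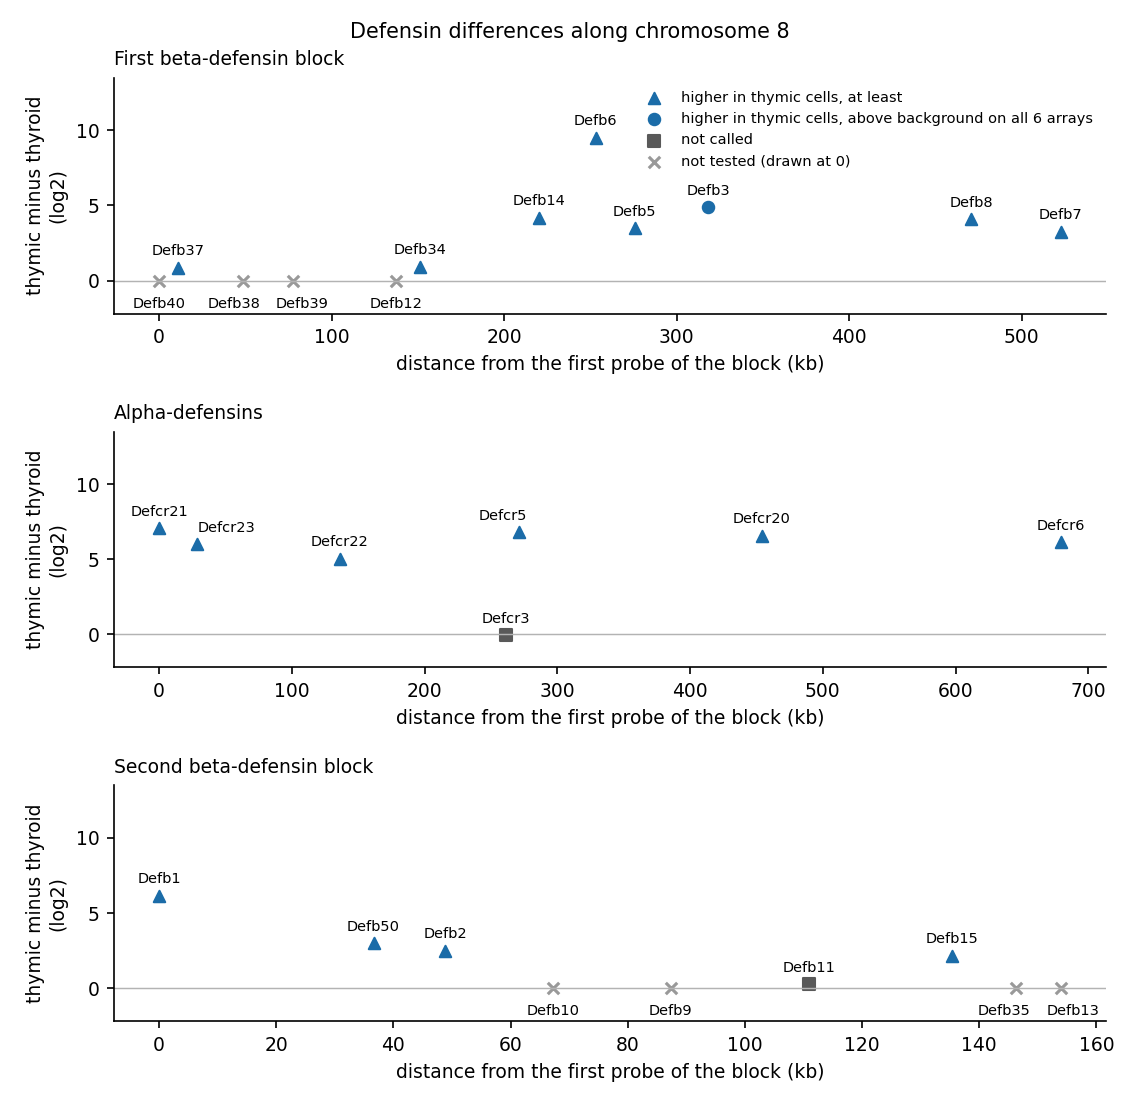
Thymic minus thyroid difference (vertical axis, log2) of placed alpha- and beta-defensins on chromosome 8 against the distance in kb from the first probe of the block (horizontal axis). Triangles mark lower limits for genes higher in thymic cells but not above background on all thyroid arrays, circles genes higher in thymic cells and above background on all 6 arrays, squares genes that did not pass, and crosses untested genes, drawn at 0. In the first beta-defensin block all 6 genes from Defb14 on were higher in thymic cells, and 4 of the 6 before it were not tested.

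The 11 defensins without a test were Defcr-rs2, Defcr-rs10, Defcr-rs12 and 8 beta-defensins. None was above background on a thymic array, so that 28 of the 39 defensins were measured at all in the thymic cells. Defcr-rs2 was above background on 1 thyroid array by 1 of its 2 probes. The Defcr-rs genes are named as cryptdin-related sequences, and Defcr-rs7 was among the genes higher in thymic cells.

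S100a genes were found on both sides. Of the 13, all tested, 8 (61.5%) were higher in thymic cells, 4 (30.8%) were higher in thyroid cells and 1 did not pass, against 39.3% and 30.5% of all genes tested. The thyroid share is thus that of the whole array. The median difference was 1.40, or 1.09 with dim thyroid values raised. No other of the 46 tested genes was higher in thyroid cells. S100a8 and S100a9, the subunits of calprotectin, had the highest lower limits of the fold. S100a8 was at 3.36, 3.46 and 3.91 in thymic and -6.55, -6.12 and -8.20 in thyroid replicates, and no thyroid value was above background. The means of 3.58 ± 0.29 and -6.96 ± 1.1 gave at least 754-fold (adjusted p = 4.83e-06). S100a9 was at 4.55, 4.31 and 4.95 in thymic and -4.90, -2.87 and -6.70 in thyroid replicates, above background on 2 thyroid arrays. Its thyroid values spread widely, by nearly 4 log2 units, yet lay far below the thymic ones (at least 655-fold, adjusted p = 8.91e-05).

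A second group was higher in thymic cells while measured on all arrays. S100a14, known from stratified and glandular epithelia, was at 6.17, 6.03 and 6.28 in thymic and 0.60, 0.88 and 1.27 in thyroid replicates (37.9-fold, adjusted p = 1.36e-06). S100a3, known from the hair cuticle, was at 2.56, 2.45 and 2.53 in thymic and -3.65, -3.89 and -3.51 in thyroid replicates (73.2-fold, adjusted p = 3.44e-07). Both groups of values were tight and lay more than 4 log2 units apart in each gene. S100a4, known from motile and mesenchymal cells, was 3.93-fold higher (5.17 ± 0.16 against 3.20 ± 0.06, adjusted p = 1.17e-05). S100a6, or calcyclin, was 2.64-fold higher (5.62 ± 0.09 against 4.22 ± 0.16, adjusted p = 7.13e-05).

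The calls of a further pair of genes higher in thymic cells depended on the processing. S100a16 was 1.59-fold higher (3.6 ± 0.03 against 2.93 ± 0.07, adjusted p = 9.22e-04) but 0.13 on the log2 scale with median centring, which shifts all genes by -0.54 (adjusted p = 0.287). S100a7a, the mouse relative of psoriasin, was above background only on the thymic arrays (-4.89 ± 0.10 against -7.88 ± 0.70, at least 2.13-fold, adjusted p = 2.05e-04) and lost its call with normexp correction (adjusted p = 0.278).

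Higher in thyroid cells were S100a5, S100a1, S100a10 and S100a13. S100a5, known from olfactory neurons, was at -1.27, -1.64 and -1.07 in thymic and 0.74, 0.99 and 0.84 in thyroid replicates (4.54-fold towards thyroid cells, adjusted p = 3.63e-05). S100a1, a regulator of calcium handling in muscle, was at 3.13, 3.07 and 3.14 in thymic and 4.38, 4.93 and 4.47 in thyroid replicates (2.79-fold, adjusted p = 2.03e-04). In both genes the groups did not overlap. S100a10, the partner of annexin A2, was 1.70-fold higher in thyroid cells (2.95 ± 0.09 against 3.72 ± 0.05, adjusted p = 5.66e-04). S100a13, which takes part in the release of fibroblast growth factor 1, was 1.44-fold higher (3.96 ± 0.12 against 4.48 ± 0.35, adjusted p = 0.0434). Its highest thymic value of 4.09 nearly met its lowest thyroid value, also 4.09, and it was past the threshold in only 7 of 18 other ways of processing. Without thymic replicate 1, 2 or 3 its adjusted p was 0.114, 0.119 or 0.0663, and without thyroid replicate 1 or 2 it was 0.112 or 0.104. S100a11 did not pass (4.12 ± 0.02 against 4.28 ± 0.35, difference -0.15 with a standard error of 0.18, adjusted p = 0.483), although median centring placed it higher in thyroid cells (adjusted p = 0.00950).

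Neighbouring S100a genes went opposite ways. The array annotation (mm8) places 11 of the 13 on chromosome 3 between the S100a1 and S100a9 probes, chr3:90597138-90778649. S100a5 lies between S100a4 and S100a6, both higher in thymic cells, and was itself higher in thyroid cells by 2.18 on the log2 scale. S100a1 and S100a13, higher in thyroid cells, lie beside S100a14 and S100a16, higher in thymic cells. The calls of S100a13 and S100a16 depended on the processing, as given above. S100a7a, S100a8 and S100a9, at the other end, were all higher in thymic cells, though the call of S100a7a was lost with normexp correction. S100a11 and S100a10, of small differences, lie apart at chr3:93611499-93649978.

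**Figure D4:**
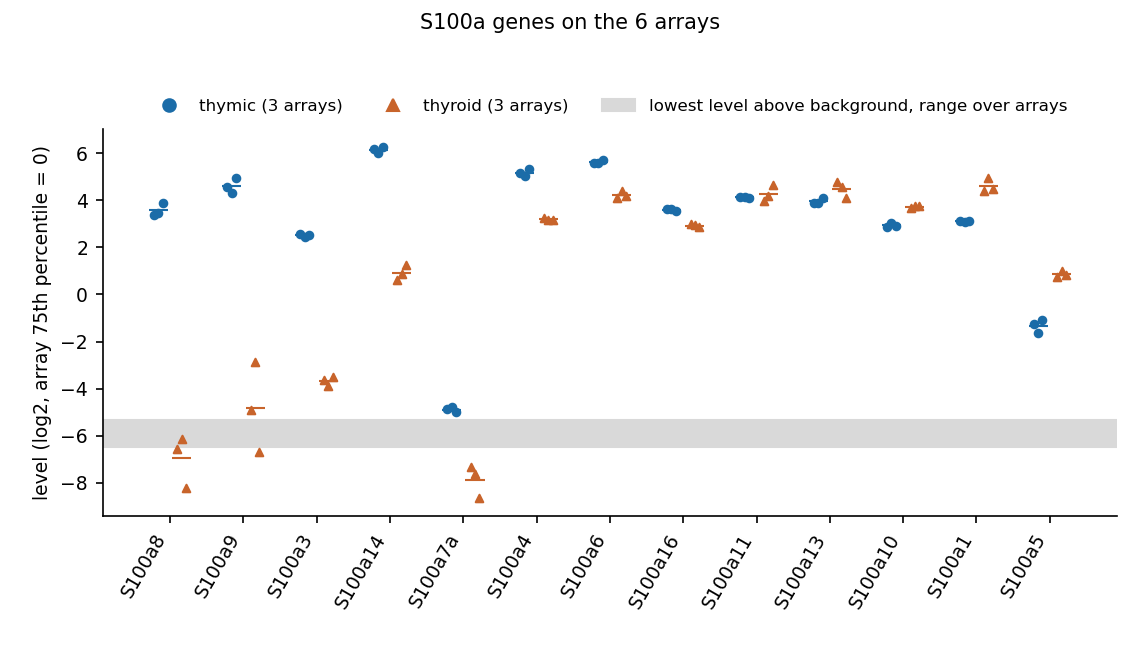
Level of the 13 S100a genes (vertical axis, log2 relative to the array's 75th percentile), ordered by their difference; points are arrays, circles thymic and triangles thyroid, short lines group means, and the grey band the lowest levels above background. From S100a8 (at least 754-fold) to S100a16 (1.59-fold) the thymic points lie higher, S100a11 overlaps, and from S100a13 to S100a5 (-2.18) the thyroid points lie higher.

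Peptidoglycan recognition proteins bind bacterial cell walls. Pglyrp1, which is bactericidal and known from neutrophil granules, was at 3.12, 3.30 and 3.42 in thymic and -4.53, -4.34 and -4.68 in thyroid replicates (222-fold, adjusted p = 2.37e-07). Pglyrp2, an amidase known from the liver, was at 4.23, 4.09 and 4.02 in thymic and -3.86, -3.76 and -2.69 in thyroid replicates (187-fold, adjusted p = 2.32e-06). The groups lay far apart in both genes. The other Pglyrp2 probe gave at least 16.7-fold and was above background on 1 thyroid array. Pglyrp3 was above background on no array and was not tested.

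The 3 single genes were all higher in thymic cells. Camp, which encodes the mouse cathelicidin, was at 0.75, 0.48 and 0.98 in thymic and -8.41, -7.62 and -8.70 in thyroid replicates, above background on no thyroid array (higher by at least 6.72 on the log2 scale, adjusted p = 9.51e-07). Ltf, the iron-binding lactoferrin of milk and neutrophil granules, was at 3.52, 3.25 and 3.52 in thymic and -1.75, -1.28 and -2.40 in thyroid replicates (37.7-fold, adjusted p = 6.58e-06), and its other probe gave 33.0-fold. Lpo, the lactoperoxidase of milk, saliva and airway fluid, was at 3.55, 3.67 and 3.53 in thymic and -2.92, -2.89 and -2.96 in thyroid replicates (91.0-fold, adjusted p = 2.27e-07). In each gene all thymic values lay above all thyroid values.

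Several of these genes are also products of neutrophils, so a list of neutrophil granule and surface genes was read beside S100a8, S100a9, Camp, Ltf and Pglyrp1. Of the 15 on the array 12 were tested, 11 were higher in thymic cells and 1 did not pass, with a median difference of 5.89, or 3.76 with dim thyroid values raised. Over all genes tested 39.3% were higher in thymic cells. Of the 12, only Mpo was above background on all 6 arrays, and the others entered the test through their thymic level alone. Of the 12, 7 were above background on no thyroid array and so could only be higher in thymic cells. The log2 of the summed level of the 12 was 4.24 to 4.42 on the thymic and -3.00 to -1.97 on the thyroid arrays. Higher in thymic cells were Chil3, a chitinase-like protein (at least 468-fold), Mmp9, a matrix protease (at least 114-fold), Mpo, the myeloperoxidase of granules (112-fold, above background on all 6 arrays), and Lcn2, a siderophore-binding lipocalin (at least 49.9-fold). So were Stfa2l1 (at least 34.2-fold), the integrin gene Itgam (at least 11.3-fold) and the granule protease gene Ctsg (at least 9.87-fold). The elastase gene Elane, known from immature neutrophils, and the receptors Csf3r and Cxcr2 were above background on no array. Ptprc, which encodes CD45, was 16.6-fold higher in thymic cells (adjusted p = 1.04e-05). The part of neutrophil RNA in the levels of these 5 genes was not tested.

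**Figure D5:**
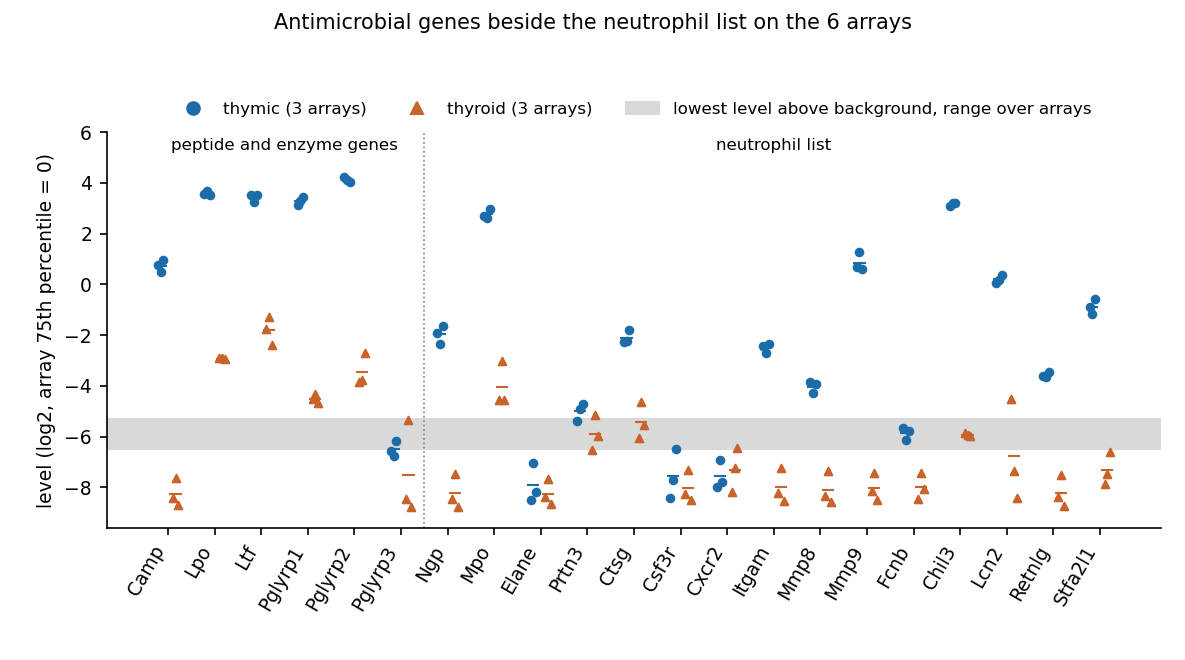
Level (vertical axis, log2 relative to the array's 75th percentile) of Camp, Lpo, Ltf and the Pglyrp genes, left of the dotted line, and of the neutrophil list, right of it; points are arrays, circles thymic and triangles thyroid, short lines group means, and the grey band the lowest levels above background. Most neutrophil genes are higher on the thymic arrays, while Elane, Csf3r and Cxcr2 lie near or below the band in both groups.

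Markers of other cells were read the same way. Of a Paneth cell list, 10 of 11 tested genes passed towards thymic cells, including the lectins Reg3g (at least 9800-fold) and Reg3b (at least 601-fold) and Clca1 (at least 635-fold), and 1 was higher in thyroid cells. The log2 of its summed level was 7.71 to 7.86 on thymic and 1.21 to 1.85 on thyroid arrays. Of a keratinocyte list, all 13 tested were higher in thymic cells, with a summed level of 7.5 to 7.72 against 1.58 to 2.16. Of thymocyte genes 11 of 12 and of macrophage genes 10 of 12 were higher in thymic cells. Of the tested Paneth genes 3 and of the keratinocyte genes 6 were above background on all 3 thyroid arrays. Of the thymocyte genes 5 and of the macrophage genes 9 were. The other tested genes of these lists entered the test through their thymic level alone. Of endothelial genes all 12 were higher in thyroid cells, with a summed level of 1.58 to 1.83 on thymic and 9.30 to 9.82 on thyroid arrays. The share of these cells in the defensin and S100a levels was not tested. The labelled tissues were also read beside their own markers. Of 10 medullary genes, 9 were higher in thymic cells, including Aire (at least 3540-fold). Of 12 thyroid follicular genes, 10 were higher in thyroid cells, among them Tg (1760-fold). The follicular summed level was 3.79 to 3.94 on thymic and 9.24 to 9.64 on thyroid arrays. On the thyroid arrays the endothelial genes thus summed to about the same level as the follicular genes. Of 10 fibroblast genes, 3 passed towards thymic cells and 1 towards thyroid cells.

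Genes that act beside these peptides were also counted. Of 28 tested antimicrobial effectors of other families, all 28 were higher in thymic cells, among them Reg3g, Reg3b and Ccl20, a chemokine with antimicrobial activity (at least 1320-fold). The share over all genes tested was 39.3%. The median difference was 6.18, or 5.85 with dim thyroid values raised. Of the 28, 13 were above background on no thyroid array and so could only be higher in thymic cells, and 11 were above background on all 6. Some of these genes also stand in the Paneth and neutrophil lists. Among 8 genes that process or sense defensins, 4 (50%) passed towards thymic and 3 (37.5%) towards thyroid cells. In so short a list these shares are near those of all genes tested. Mmp7, the protease that activates mouse cryptdins, was at least 87.1-fold above its thyroid level in thymic cells (1.41 against -5.04, adjusted p = 9.94e-07), above background on 2 thyroid arrays. Ccr6, a receptor for beta-defensins, was 53.2-fold higher (adjusted p = 6.93e-07) and Ccr2, another, at least 12.9-fold. Furin, a proprotein convertase, was 1.54-fold higher on the thyroid side (adjusted p = 0.0107), as were the melanocortin receptors Mc1r and Mc4r (1.94-fold and 2.38-fold).

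A list of other S100, S100-fused and S100-named genes had 7 tested members. Of these, 5 (71.4%) passed towards thymic and 2 (28.6%) towards thyroid cells, against 39.3% and 30.5% of all genes tested. The 5 included the epidermal Rptn (at least 272-fold), Hrnr (at least 66.1-fold) and the calcium carrier S100g (264-fold). S100b, known from glia, was 32.3-fold higher in the thyroid group (adjusted p = 3.71e-07). S100pbp, which encodes a binding partner and not an S100 protein, was 1.34-fold higher there. Of 12 partners and receptors of S100 proteins, 8 (66.7%) were higher in thyroid cells, against the 30.5% of all genes tested. In thymic cells 1 (8.33%) was higher, Anxa1 (2.43-fold, adjusted p = 4.70e-04). Ager, which encodes the receptor RAGE, had a thyroid level 168-fold above the thymic one (adjusted p = 4.79e-07), and Cd36 one 31.8-fold above. Tlr4, another receptor of S100a8 and S100a9, did not pass (1.12-fold, adjusted p = 0.205).

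Sensors of microbes and the cytokine pathways that induce defensins had 8 of 21 tested genes (38.1%) higher in thymic and 5 (23.8%) in thyroid cells, shares near or below the 39.3% and 30.5% of all genes tested. Tlr1 lay at least 24.6-fold higher on the thymic side, and Nod1, a sensor of bacterial cell walls, 10.7-fold higher in thyroid cells. Among 8 heme peroxidases, the enzyme class of Lpo, 3 (37.5%) passed in each direction, shares near those of all genes tested. Epx of eosinophils (at least 46.8-fold) and Mpo lay on the thymic side. Of 5 genes of iron binding and uptake, read beside Ltf, 2 (40%) passed towards thymic and 3 (60%) towards thyroid cells. Trf, which encodes transferrin, was 19.6-fold higher in thymic cells.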

How the data were processed

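Sorted thymic and thyroid epithelial cells were profiled on 3 arrays each. Per the file headers, the arrays were read with Agilent Feature Extraction 10.5.1.1, probes are placed on mm8, and the deposited intensity of a spot is its processed signal, already background-subtracted by the authors' scanner software. The authors' deposited value table is a linear ratio to each array's median and served as an alternative. Control and outlier spots were dropped, repeat spots were averaged by probe, and levels were log2 of the processed signal minus the array's 75th percentile. The 75th percentile signal was 476.0 to 805.0, and no spot was saturated. Each tested gene was represented by its probe with the highest mean level. The 2 groups entered a limma 3.58.1 fit (R 4.3.3; two-sided moderated test, no covariate, Benjamini-Hochberg over all genes tested), which was tested on simulated data. Probe and promoter sequences were searched in Python 3.11.15, with alignments by Biopython 1.88 (match 1, mismatch -1, gap -2) and figures by matplotlib 3.10.9.

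The members, gene lists and tests were chosen with earlier results of these data known. Named whatever their values were all S100a and Pglyrp genes, Camp, Ltf and Lpo; among the defensins, the 6 largest differences per family and direction and every gene above background on all 6 arrays; from each other list, at most 3 per direction. Further defensins named by position, and Defcr-rs2, Defcr-rs7, Tlr4, Elane, Csf3r, Cxcr2, Mpo, Stfa2l1, Itgam and Ctsg were chosen after their values were seen. Some genes that this rule names are not reported or drawn here, but stay in the fit and the counts. Alternatives were other background corrections, scalings and filters, the median over probes, the slide or the replicate number as a block, slide 1 alone and leaving out each array.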

Additional observations from a re-analysis of the deposited data

Results flagged for a closer look

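Defcr-rs2, a cryptdin-related sequence gene that entered no test, was above background on a single array, thyroid replicate 1, by 1 of its 2 probes. The level there was -4.91 on the log2 scale, against -7.66 and -8.66 on the other thyroid arrays and -8.18 to -8.52 on the thymic arrays. The gene's other probe, which shares 33 bases with it, was at -8.08 on the same array and was not above background there. The result was noted because it is a signal in a gene that the comparison did not use.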

How the results depend on the processing

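Of the 46 tested genes, 36 kept their direction and their side of the threshold in every one of the 18 alternatives that tested them, and 10 changed in at least 1. With a filter on all 6 arrays, which tests fewer genes, 13 genes were higher in thymic cells, 4 of them beta-defensins and 5 S100a genes. With quantile normalization 1 beta-defensin, Defb11, was higher in thyroid cells, its difference reversed to -0.86. The median difference was 1.92 with normexp background correction, 4.68 with quantile normalization, 4.63 with median centring, 4.64 with the deposited value table, 3.46 with no filter and 1.97 with the filter on all 6 arrays. With the median over probes, Defcr3 reversed to 3.66. Normexp correction ended the calls of S100a7a, S100a13, Defb34, Defb36, Defb37 and Defb41. With median centring or the deposited table, Defcr3 and S100a11 became higher in thyroid cells and S100a16 lost its call.

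Slide 1 held the thymic arrays and thyroid replicate 1, slide 2 the other thyroid arrays. The slide block and slide 1 alone both take the difference from thyroid replicate 1, and are not separate checks. With the slide as a block, Defb34 lost its call (adjusted p = 0.0869, limma) and Defb11 was higher in thymic cells by 0.80 (adjusted p = 0.00562), as on slide 1 alone, where the lone thyroid sample is taken to vary as the thymic samples do. Samples of the same number share only that number: their deviations correlated at 0.01, -0.07 and -0.05. With the replicate block 39 members passed towards thymic and 3 towards thyroid cells, S100a13 being the one that changed (adjusted p = 0.0821). Leaving out each array gave 39 genes higher in thymic cells throughout and 3 to 4 in thyroid cells. Signals near background limit the folds of dim genes, and the cause of the changes was not tested.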
